A study of Homo sapiens with 6 samples.

Results

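The genes of glucose uptake, glycolysis and the hypoxia response were examined in A549 cells, a long-established line from a human lung adenocarcinoma, after transfection with the microRNA miR-19a. The set holds 39 genes, found by symbol among the 57905 gene identifiers of the deposited table, and was divided by role into 2 glucose transporters, 17 glycolytic enzymes, 4 regulatory enzymes, 2 lactate transporters, 11 other hypoxia-inducible genes and 3 subunits of hypoxia-inducible factor (HIF). RNA was poly(A)-selected and sequenced from 3 samples given miR-19a and 3 given the control microRNA miR-NC, each at 25 nM with a harvest time of 24 h. Both groups received a lipid transfection, and the labels name no oxygen treatment, no glucose treatment and no measurement of glucose uptake or lactate. All values are therefore RNA levels in a single cell line, and nothing in the labels says that samples of 1 group came from separate cultures, so that p-values reflect only the spread among the samples at hand, possibly a technical one. In bulk RNA, a change in the number of cells that express a gene and a change in RNA per cell cannot be told apart.

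Cells take up glucose through facilitative transporters of the SLC2A (GLUT) family, and glycolytic enzymes convert it to pyruvate. Lactate dehydrogenase turns pyruvate into lactate, which monocarboxylate transporters of the SLC16A family export. HIF is a transcription factor of an oxygen-labile alpha subunit (HIF1A or EPAS1) and the constant partner ARNT. In oxygen the prolyl hydroxylases of the EGLN family mark the alpha subunit for degradation, and in hypoxia the stable factor raises many genes of glycolysis together with VEGFA, CA9, ADM and others. Lung adenocarcinoma cells such as A549 express much of the glycolytic route in ordinary culture.

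Total counts were between 15699037 and 17957932 per library. Libraries of a group differed by a mean chi-square per gene of 1.57 to 3.73, above sampling noise, and libraries of different groups by 22.6 to 25.4. Epithelial keratins marked every library, with the 7 epithelial markers summing to 1954 to 2030 FPKM (fragments scaled to gene length and sequencing depth, as deposited) in miR-19a libraries and 1777 to 1811 FPKM in miR-NC libraries, although EPCAM, an epithelial adhesion molecule, was low at 0.6 to 0.8 FPKM in group means. Fibroblast markers were included because a lung fibroblast culture is named in the growth protocol. The 7 fibroblast markers summed to 2.99 to 3.69 FPKM in miR-19a libraries and 1.73 to 2.02 FPKM in miR-NC libraries. COL1A2, COL3A1, DCN and PDGFRB were under 0.1 FPKM in every library. Most of the fibroblast sum in miR-19a libraries was COL1A1, a collagen chain, at 2.57 ± 0.177 FPKM in miR-19a and 0.903 ± 0.1 FPKM in miR-NC libraries (SD, n = 3 each). COL1A1 was called higher (log2 fold change 1.52, SE 0.095), while THY1 averaged 0.613 FPKM in miR-19a and 0.89 FPKM in miR-NC libraries. The 4 immune markers summed to 1.41 to 1.75 FPKM in miR-19a and 0.84 to 1.25 FPKM in miR-NC libraries, nearly all of it CD14, while PTPRC and CD3E, both endothelial markers measured and the red cell marker HBB were under 0.1 FPKM in every library. The part of these differences in marker sums in the results below was not tested.

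Levels of one gene across libraries are given below as CPM, counts scaled to a common library size with TMM factors, and levels of different genes are set side by side in FPKM, which is per length. A gene was called when the adjusted p of edgeR's quasi-likelihood test, corrected over all 12452 genes tested, was under 0.05, and fold changes are log2 values of miR-19a over miR-NC. Of the 39 genes, 36 reached the mean of 1 FPKM needed for the test. Among those, 10 were higher (27.8%), 12 were lower (33.3%) and 14 did not pass the threshold. Over all genes tested 48.4% were called, 24.9% higher and 23.5% lower. The median log2 fold change was -0.03 for the 36 genes and 0.00 for all genes tested. No overlap in CPM between the 3 libraries of each group was found for 28 of the 36 genes, beside 54.0% of all genes tested. A change of at least 0.5 on the log2 scale in either direction was seen for 3 of the 36 genes (8.33%), beside 13.6% of all genes tested. These 3 were SLC2A3, PFKFB4 and ALDOC, all higher, as the plot of fold changes by role shows. Gene positions below are from GENCODE v29 on GRCh38, matched by gene identifier, since the deposited table names no build.

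**Figure D1:**
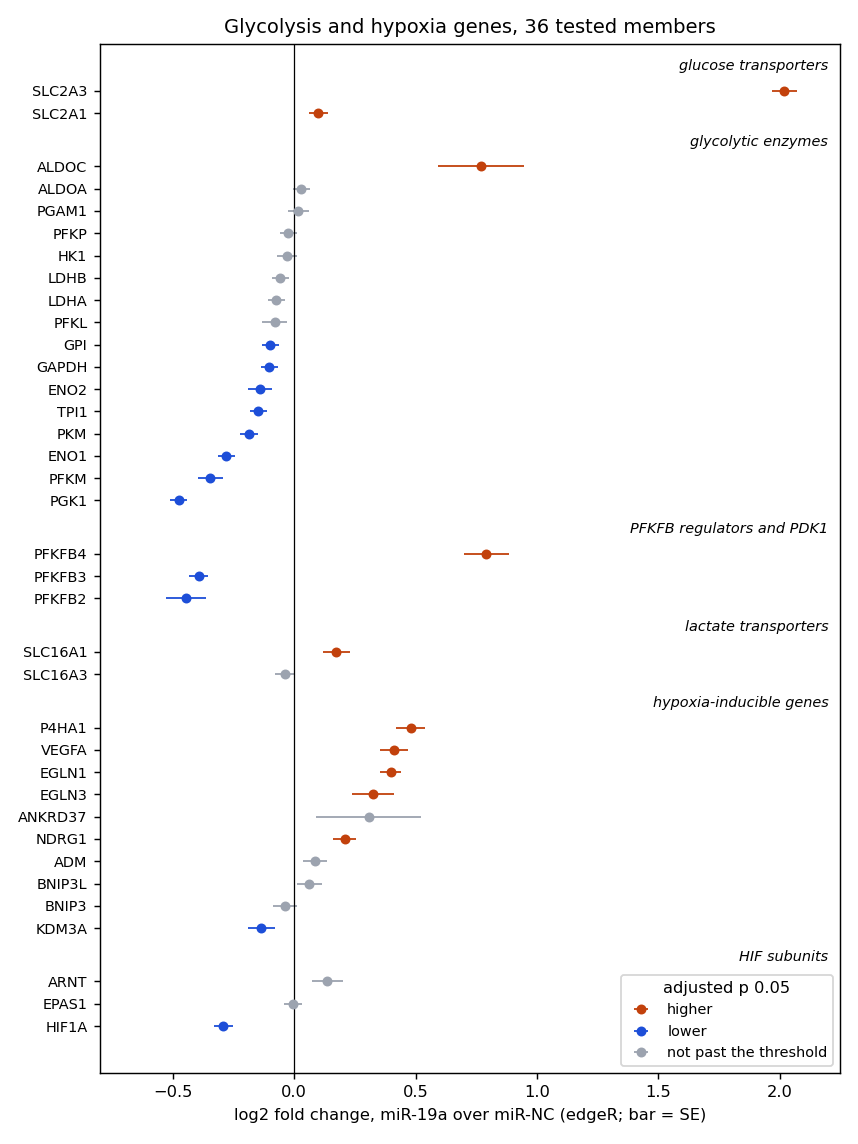
Log2 fold change of miR-19a over miR-NC for the 36 tested genes, grouped by role, with the standard error of edgeR's fit as a bar (3 libraries per group). SLC2A3 stands apart at 2.02, and glycolytic enzymes other than ALDOC lie between -0.48 and 0.03.

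Of the glucose transporters SLC2A1 and SLC2A3, SLC2A3 changed most. SLC2A3 (ENSG00000059804, chr12:7919230-7936275, minus strand), which encodes GLUT3, a high-affinity transporter best known from neurons, had 159.8, 161 and 143 CPM in the miR-19a libraries, against 36.2, 37.7 and 40.3 CPM in the miR-NC libraries. It was higher by a factor of 4.05 (log2 fold change 2.02, SE 0.053, adjusted p = 1.77e-42), and the groups were far apart. SLC2A1 (ENSG00000117394, chr1:42925375-42959176, minus strand), which encodes the widely expressed basal transporter GLUT1, had 258, 269.9 and 272 CPM in the miR-19a libraries, against 249.6, 249 and 249 CPM in the miR-NC libraries. All 3 miR-19a libraries were above the miR-NC libraries, but the difference was small (log2 fold change 0.10, SE 0.038, adjusted p = 0.0262), and the call ended with upper-quartile factors (adjusted p = 0.0871), with library totals alone (0.0649) and with limma at either pseudocount (0.074 and 0.0756). It also ended when replicate 2 or 3 of miR-19a was left out (0.11 and 0.0837), and when replicate 1 or 3 of miR-NC was (0.0627 and 0.051).

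In FPKM, SLC2A3 made up 29.8%, 28.9% and 26.3% of the sum of both transporters in the miR-19a libraries, against 9.02%, 9.39% and 9.97% in the miR-NC libraries. The sum itself was 86.7, 89.8 and 87.4 FPKM in the miR-19a libraries, against 65.5, 65.3 and 66.3 FPKM in the miR-NC libraries, a ratio of means of 1.34. SLC2A1 thus stayed the more abundant of the pair in every library. SLC2A3 has a near-identical paralogue, SLC2A14, with which the authors' counting could share reads. SLC2A14 had 10, 10 and 6 counts in the miR-19a libraries, against 1, 0 and 0 counts in the miR-NC libraries, and with the counts of SLC2A14 and of the SLC2A3 pseudogenes added to SLC2A3 the log2 fold change was 2.03.

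**Figure D2:**
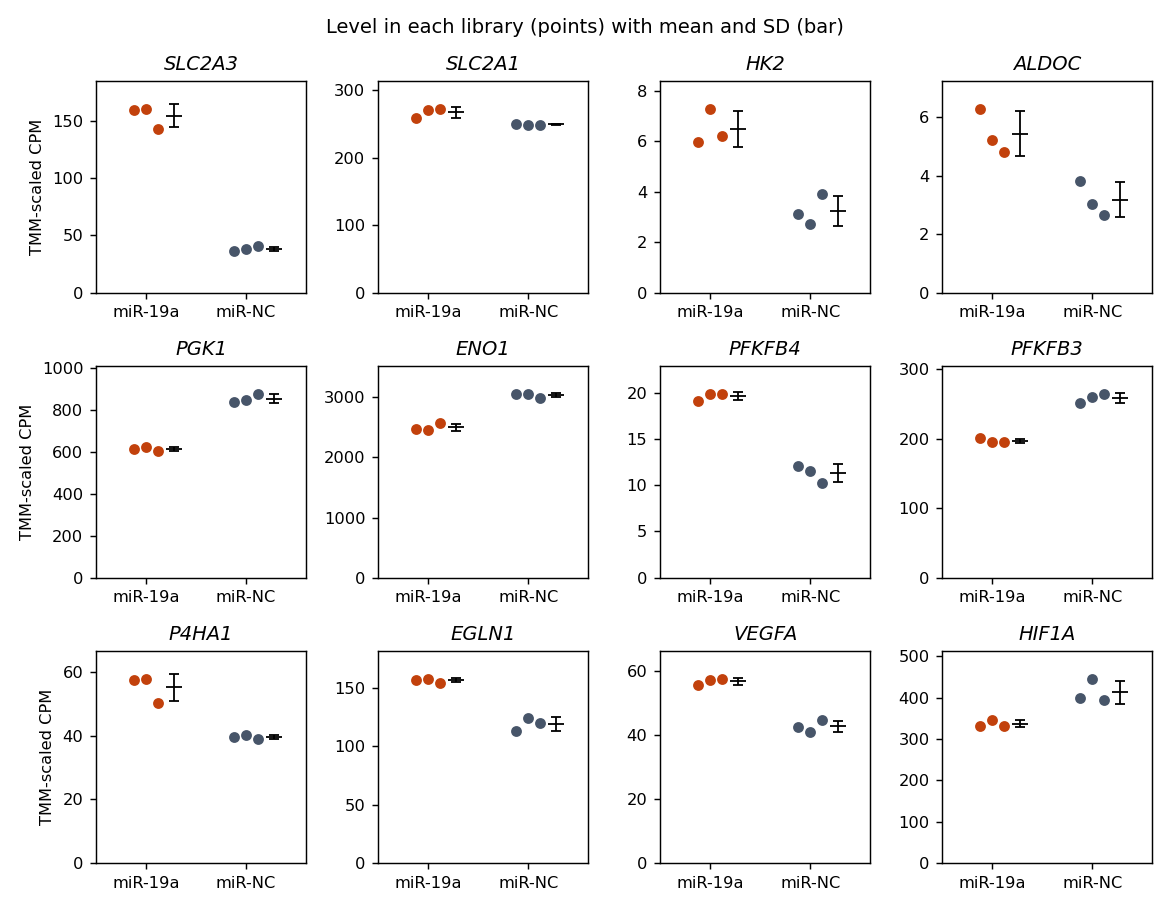
TMM-scaled CPM of 12 genes in each library, miR-19a on the left and miR-NC on the right, with the mean and SD (n = 3) beside the points and every axis starting at 0. The groups do not overlap in any of the 12 genes, with SLC2A3 at 143 to 161 CPM in miR-19a and 36.2 to 40.3 CPM in miR-NC. The 12 genes were chosen for display, so this count is no result. Groups did not overlap for 28 of the 36 tested members and for 54.0% of all genes tested.

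More glycolytic enzymes fell than rose, mostly by small amounts. Of the 16 tested, 8 fell (50%), beside 23.5% lower over all genes tested, 1 rose and 7 did not pass, and the median log2 fold change was -0.09. PGK1 (ENSG00000102144, chrX:77910739-78129296, plus strand), phosphoglycerate kinase, fell most and had 615, 624 and 604 CPM in the miR-19a libraries, against 839, 847 and 879 CPM in the miR-NC libraries (log2 fold change -0.48, SE 0.036, adjusted p = 1.53e-18). PFKM (ENSG00000152556, chr12:48105139-48146404, plus strand), the muscle-type subunit of phosphofructokinase, had 65.3, 58.5 and 66.6 CPM in the miR-19a libraries, against 81.1, 80.2 and 80.6 CPM in the miR-NC libraries (log2 fold change -0.35, SE 0.052, adjusted p = 5.49e-08). ENO1 (ENSG00000074800, chr1:8861000-8879250, minus strand), the main enolase, had 2465, 2456 and 2561 CPM in the miR-19a libraries, against 3053, 3042 and 2990 CPM in the miR-NC libraries (log2 fold change -0.28, SE 0.035, adjusted p = 4.17e-10). In each of the 3 genes every miR-19a library was below every miR-NC library.

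The other falls were under 0.2 on the log2 scale. PKM, pyruvate kinase, changed by -0.19 (SE 0.036) and TPI1, triosephosphate isomerase, by -0.15 (SE 0.035). ENO2, the enolase known from neurons, changed by -0.14 (SE 0.05, adjusted p = 0.0161), GAPDH by -0.10 (SE 0.035, adjusted p = 0.0126) and GPI, glucose-6-phosphate isomerase, by -0.10 (SE 0.036, adjusted p = 0.0187). These last 3 calls did not hold in every fit with 1 library left out. In the fits that lost a call, log2 fold changes were -0.13 to -0.08 and standard errors 0.044 to 0.058. With miR-19a replicate 1 left out, GPI and GAPDH lost theirs (adjusted p = 0.161 and 0.0863), and likewise with replicate 2 of that group left out (0.0669 and 0.0875). ENO2 lost its call when either miR-19a replicate 3 (0.0995) or miR-NC replicate 1 (0.0626) was left out. GAPDH, a common reference gene for quantitative PCR, had 4492, 4484 and 4656 CPM in the miR-19a libraries, against 4896, 4781 and 4960 CPM in the miR-NC libraries.

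LDHA and LDHB, the subunits of lactate dehydrogenase, had log2 fold changes of -0.08 and -0.06 and did not pass (adjusted p = 0.0712 and 0.179). For both, all 3 miR-19a libraries lay below the miR-NC libraries. HK1, the housekeeping hexokinase, PFKP and PFKL, the platelet-type and liver-type phosphofructokinase subunits, ALDOA, the main aldolase, and PGAM1, phosphoglycerate mutase, had values between -0.08 and 0.03 and did not pass. Summed over the 17 enzymes, FPKM came to 4405, 4406 and 4498 in the miR-19a libraries, against 4922, 4882 and 4951 in the miR-NC libraries, a ratio of means of 0.902. That sum was 1.35% to 1.38% of all FPKM in the miR-19a libraries and 1.46% to 1.49% in the miR-NC libraries.

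The enzyme called higher, ALDOC, was a low-abundance isoform, as was HK2, which was below the filter. ALDOC (ENSG00000109107, chr17:28573115-28577264, minus strand), the brain-type aldolase, had 6.29, 5.20 and 4.82 CPM in the miR-19a libraries, against 3.82, 3.04 and 2.65 CPM in the miR-NC libraries (log2 fold change 0.77, SE 0.18, adjusted p = 0.000207). HK2 (ENSG00000159399, chr2:74833981-74893359, plus strand), the inducible hexokinase of many tumours, had 5.98, 7.30 and 6.22 CPM in the miR-19a libraries, against 3.11, 2.73 and 3.91 CPM in the miR-NC libraries. Its libraries did not overlap either, but its mean of 0.802 FPKM kept it out of the test, and in the fit without a filter its log2 fold change was 1.01 (SE 0.16, adjusted p = 9.4e-09). In FPKM, HK2 averaged 1.07 ± 0.117 in miR-19a and 0.537 ± 0.103 in miR-NC libraries (SD, n = 3 each), beside 26.5 and 27.3 for HK1.

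**Figure D3:**
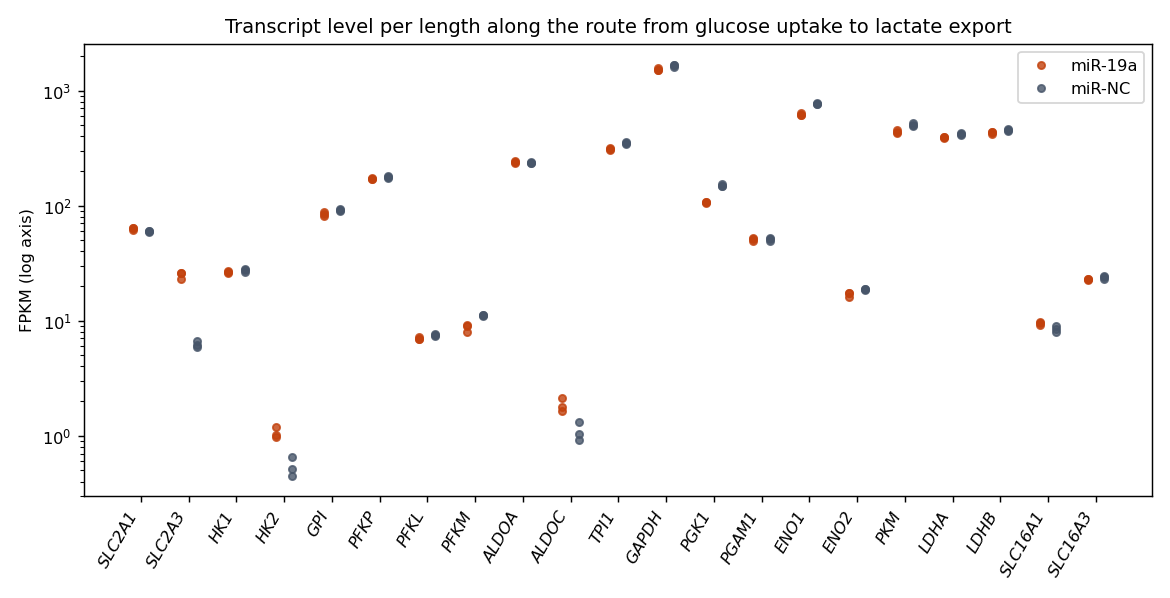
FPKM of transporters and enzymes in each library on a log axis, in the order of the route from glucose uptake to lactate export, miR-19a left of miR-NC for each gene. GAPDH and ENO1 are the most abundant, and visible shifts upward are those of SLC2A3, HK2 and ALDOC.

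Transcript levels per length spanned a wide range along the route. GAPDH led with a mean of 1519 FPKM in miR-19a and 1649 FPKM in miR-NC libraries, followed by ENO1 with 626.6 and 769.3 FPKM. PKM (438.6 and 504.8 FPKM), LDHB (431.3 and 453.7 FPKM) and LDHA (393.8 and 419.3 FPKM) came next, the first value being miR-19a in each. Among phosphofructokinase subunits PFKP held 91.4% to 92.0% of the FPKM in miR-19a and 90.4% to 90.6% in miR-NC libraries, so that the fall of PFKM concerned a minor subunit. Enolase summed to 643.5 ± 13.7 FPKM in miR-19a and 788.0 ± 6.4 FPKM in miR-NC libraries (SD, n = 3 each), and aldolase to 241.0 ± 3.5 and 238.2 ± 1.05 FPKM.

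The bifunctional PFKFB enzymes set the level of fructose 2,6-bisphosphate, which activates phosphofructokinase, and their RNAs moved in opposite directions. PFKFB4 (ENSG00000114268, chr3:48517684-48562015, minus strand) had 19.1, 19.9 and 19.9 CPM in the miR-19a libraries, against 12.1, 11.6 and 10.3 CPM in the miR-NC libraries (log2 fold change 0.79, SE 0.093, adjusted p = 5.19e-11). PFKFB3 (ENSG00000170525, chr10:6144934-6254644, plus strand), the most abundant of the family here and known for high kinase activity, had 201, 195 and 196 CPM in the miR-19a libraries, against 252, 259.9 and 265 CPM in the miR-NC libraries (log2 fold change -0.39, SE 0.039, adjusted p = 1.01e-13). PFKFB2 (ENSG00000123836, chr1:207034366-207081024, plus strand), the heart-type enzyme, had 14.8, 16.4 and 16.4 CPM in the miR-19a libraries, against 21.8, 21.6 and 21.6 CPM in the miR-NC libraries (log2 fold change -0.45, SE 0.084, adjusted p = 7.43e-06). PFKFB4 rose and PFKFB2 and PFKFB3 fell, with no overlap between groups in any of them. Over all genes tested 48.4% were called and 54.0% did not overlap. Together PFKFB2 to PFKFB4 summed to 40.7, 39.9 and 40.0 FPKM in the miR-19a libraries, against 49.96, 51.1 and 52.3 FPKM in the miR-NC libraries.

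PDK1, the pyruvate dehydrogenase kinase induced by HIF, had 10.3, 10.9 and 10.6 CPM in the miR-19a libraries, against 8.66, 6.94 and 9.65 CPM in the miR-NC libraries. The groups did not overlap, but at a mean of 0.63 FPKM it was not tested, and in the fit without a filter its log2 fold change was 0.34 (SE 0.12, adjusted p = 0.0185). Of the lactate transporters, SLC16A1, which encodes MCT1, had 61.4, 63.2 and 59.99 CPM in the miR-19a libraries, against 54.7, 51.8 and 57.3 CPM in the miR-NC libraries (log2 fold change 0.17, SE 0.055, adjusted p = 0.00628). SLC16A3, which encodes MCT4, the transporter known to be induced by HIF, had 206, 209.9 and 209.8 CPM in the miR-19a libraries, against 207, 216 and 219.7 CPM in the miR-NC libraries. Its groups overlapped and it did not pass (log2 fold change -0.04, SE 0.039, adjusted p = 0.438).

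Ratios within a library do not depend on the scaling of libraries. Of 11 ratios of isoenzymes or paralogues taken in FPKM, 8 did not overlap between groups, beside 54.0% of single genes tested, and no such share was computed for ratios of other genes. Each of those 8 had an exact two-sided permutation p of 0.10, the smallest that 3 against 3 libraries can give. SLC2A3 to SLC2A1 differed most, with log2 ratios of -1.24, -1.30 and -1.48 in the miR-19a libraries, against -3.33, -3.27 and -3.18 in the miR-NC libraries. PFKFB4 to PFKFB3 was -3.48 ± 0.054 in miR-19a and -4.67 ± 0.16 in miR-NC libraries (mean ± SD, n = 3 each), and HK2 to HK1 was -4.64 ± 0.18 and -5.69 ± 0.31. The remaining ratios moved less. The difference, miR-19a minus miR-NC, was 0.76 for ALDOC to ALDOA, 0.29 for EPAS1 to HIF1A, 0.14 for ENO2 to ENO1, -0.21 for SLC16A3 to SLC16A1 and -0.27 for PFKM to PFKL. Groups overlapped for PFKP to PFKL (0.06), LDHB to LDHA (0.02) and PFKFB2 to PFKFB3 (-0.06), with exact permutation p of 0.30, 0.70 and 0.70.

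**Figure D4:**
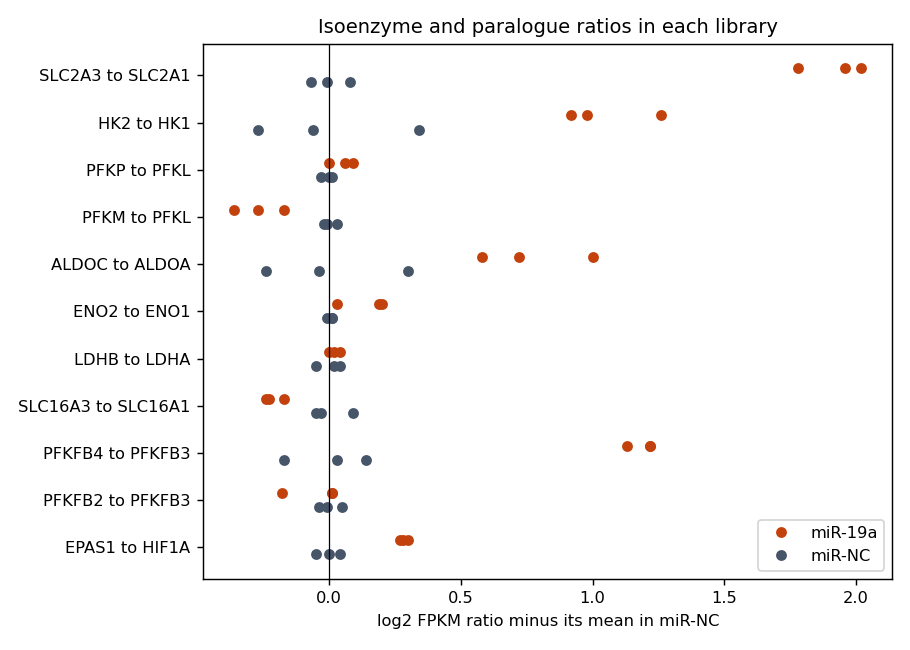
Log2 ratio of FPKM for 11 gene pairs in each library, less the mean of the 3 miR-NC libraries for that pair, miR-19a above miR-NC. SLC2A3 to SLC2A1, PFKFB4 to PFKFB3, HK2 to HK1 and ALDOC to ALDOA lie farthest to the right in miR-19a libraries.

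HIF1A (ENSG00000100644, chr14:61695513-61748259, plus strand), the alpha subunit that is best known for control of glycolytic genes, fell. It had 332, 347 and 332 CPM in the miR-19a libraries, against 399, 446 and 394 CPM in the miR-NC libraries (log2 fold change -0.29, SE 0.039, adjusted p = 3.17e-09), and the groups did not overlap. EPAS1, the alpha subunit also called HIF2-alpha, had 570.4, 591 and 581 CPM in the miR-19a libraries, against 579, 609.6 and 559 CPM in the miR-NC libraries and did not pass (log2 fold change 0.00, SE 0.037, adjusted p = 0.927). Per length, EPAS1 stood at 79.2 ± 1.45 and HIF1A at 65.1 ± 1.7 FPKM in miR-19a libraries, against 80.3 ± 3.16 and 80.6 ± 5.23 FPKM in miR-NC libraries (SD, n = 3 each). ARNT, the shared partner, had 37.0, 37.7 and 37.1 CPM in the miR-19a libraries, against 33.6, 36.2 and 31.8 CPM in the miR-NC libraries and did not pass (log2 fold change 0.14, SE 0.065, adjusted p = 0.0752), although without miR-NC replicate 2 it was called higher at 0.19 (adjusted p = 0.0249).

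Other hypoxia-inducible genes were more often higher than lower. Of the 10 tested, 5 rose, 1 fell and 4 did not pass, with a median log2 fold change of 0.26, beside 24.9% higher, 23.5% lower and a median of 0.00 over all genes tested. P4HA1 (ENSG00000122884, chr10:73007217-73096974, minus strand), a catalytic subunit of collagen prolyl 4-hydroxylase, had 57.6, 57.9 and 50.4 CPM in the miR-19a libraries, against 39.5, 40.3 and 39.1 CPM in the miR-NC libraries (log2 fold change 0.48, SE 0.06, adjusted p = 3.67e-10). VEGFA (ENSG00000112715, chr6:43770184-43786487, plus strand), the angiogenic growth factor, had 55.7, 57.4 and 57.6 CPM in the miR-19a libraries, against 42.6, 41.1 and 44.6 CPM in the miR-NC libraries (log2 fold change 0.41, SE 0.057, adjusted p = 7.44e-09). EGLN1 (ENSG00000135766, chr1:231363751-231425044, minus strand), the main oxygen sensor that hydroxylates HIF, had 157, 158 and 155 CPM in the miR-19a libraries, against 113, 124 and 119.9 CPM in the miR-NC libraries (log2 fold change 0.40, SE 0.043, adjusted p = 2.68e-12). In these genes every miR-19a library was above every miR-NC library, by a factor of 1.32 to 1.39 in the fit.

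EGLN3, a HIF prolyl hydroxylase that HIF itself induces, rose by 0.33 (SE 0.088, adjusted p = 0.00137) and NDRG1, a stress-responsive gene of cell differentiation, by 0.21 (SE 0.048, adjusted p = 0.000204). KDM3A, a histone H3K9 demethylase, had 52.9, 50.2 and 49.3 CPM in the miR-19a libraries, against 54.2, 57.1 and 56.1 CPM in the miR-NC libraries. It was called lower (log2 fold change -0.14, SE 0.056, adjusted p = 0.0374), but not when replicate 2 or 3 of miR-19a was left out (adjusted p = 0.0916 and 0.116) or replicate 2 or 3 of miR-NC (0.0993 and 0.0767), nor with DESeq2 (0.0772), with limma at either pseudocount (0.0809 and 0.0751) or without a filter (0.11). The vasodilator peptide gene ADM at 0.09 (SE 0.048), the mitophagy receptors BNIP3 at -0.04 (SE 0.051) and BNIP3L at 0.06 (SE 0.052), and ANKRD37 at 0.31 (SE 0.22) did not pass. CA9, the carbonic anhydrase that is a common marker of hypoxia, had 1.11, 0.818 and 0.840 CPM in the miR-19a libraries, against 1.20, 0.991 and 1.135 CPM in the miR-NC libraries. The groups overlapped at this very low level, with 18, 14 and 15 counts in the miR-19a libraries against 20, 16 and 18 in the miR-NC libraries.

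Sites for miR-19a were about as frequent among these genes as among all genes tested. The mature strand miR-19a-3p (RefSeq, GRCh38.p14, chr13:91350939-91350961, plus strand) is shown with its seed, bases 2 to 8, in capitals. Below it stand matches in 3′ UTRs of some members whose strongest site was a 7mer, in the transcript with the longest coding sequence (GENCODE v29, GRCh38), shown because they are the places where the introduced microRNA could pair, with the match in capitals.
miR-19a-3p: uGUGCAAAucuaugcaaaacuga
PKM: ggcctctccagTTTGCACctgtcccc
HIF1A: ggtagccacaaTTGCACAatatattt
EPAS1: atctgtgaaagTTGCACAgcgtggct
SLC2A1: ttctagtctccTTTGCACtgagggcc
SLC16A3: cagggctggtcTTTGCACcctgtcct

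The match TTTGCAC (7mer-m8) was the strongest in PKM, SLC2A1 and SLC16A3, and TTGCACA (7mer-A1) was in HIF1A, EPAS1, BNIP3L and PDK1 among others. No member carried the full 8mer TTTGCACA in this transcript. A site of 7 or 8 nt was thus present in 8 of 39 members (20.5%), beside 18.7% of the 10551 tested genes with a 3′ UTR. The sites shown lie at chr15:72199166-72199172 in PKM, chr14:61747545-61747551 in HIF1A, chr2:46385283-46385289 in EPAS1, chr1:42926395-42926401 in SLC2A1 and chr17:82239848-82239854 in SLC16A3, each within a single exon. Of the 7 members with a site that were tested, 3 fell, 1 rose and 3 did not pass. Classed in the same way, 290 of 780 tested genes in the 7mer-m8 class fell and 185 rose. In the 7mer-A1 class 180 of 550 fell and 144 rose. The members were not tested against these shares, and 7 genes are few. Over all genes tested the median log2 fold change was -0.06 for genes with a 7mer-m8, -0.04 with a 7mer-A1 and 0.03 with no site.

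Of the members described above with values in every library, SLC2A3 and ARNT carried only the 6mer TTGCAC, in SLC2A3 at chr12:7919473-7919478. PFKM, ENO1, GAPDH, ALDOC, HK2, PFKFB2, PFKFB3, PFKFB4, SLC16A1, P4HA1, EGLN1, VEGFA, KDM3A and CA9 carried none in the transcript used. For VEGFA that transcript has a 3′ UTR of only 47 bases. The absence of a site says only that these letters are not in these UTRs. In the longest annotated 3′ UTR the number of members with a site of 7 or 8 nt was 10. The strongest site was an 8mer in 1, a 7mer-m8 in 4 and a 7mer-A1 in 5. Among tested genes with a 3′ UTR these shares were 7.02%, 8.72% and 6.34%. With this choice of UTR PFKM gained an 8mer and PFKFB3 a 7mer-m8. Among tested genes with an 8mer in the longest 3′ UTR, 341 of 741 fell. Among those with a 7mer-m8 as the strongest site, 328 of 920 fell. PFKM and PFKFB3 both fell, as did 23.5% of all genes tested. The part of these sites in the falls was not tested.

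The core of the hypoxia response element to which HIF binds is ACGTG or GCGTG. It was searched on both strands in promoters from 250 bases before to 50 after each start (RefSeq, GRCh38.p14). Of the 39 members 33 matched the promoter table, and among the 21 with a single listed start 18 (85.7%) held a match, beside 47.3% of the 22114 genes with a single start. ACGTG was held by 10 of the 21 (47.6%), beside 21.3%, and GCGTG by 11 (52.4%), beside 35.4%. CACGTG, which holds ACGTG on both strands, was in 4 of the 21, beside 7.28%. The shares beside those of the members are over all genes with a single start, expressed here or not. They were not matched for expression or base composition. All are counts of letters and no test was made. The set was drawn up from genes of glycolysis and the hypoxia response, many of them known HIF targets. A higher share among members could follow from that choice of genes.

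The promoters of the members with the largest rises among hypoxia-inducible genes and the largest falls among enzymes, of those with a single start, are shown 5′ to 3′ with matches on either strand in capitals, because these members moved in opposite directions while all are textbook HIF targets. They are P4HA1 (chr10:73096817-73097116, minus strand), EGLN1 (chr1:231422238-231422537, minus strand), PGK1 (chrX:78103998-78104297, plus strand) and ENO1 (chr1:8878637-8878936, minus strand).
P4HA1: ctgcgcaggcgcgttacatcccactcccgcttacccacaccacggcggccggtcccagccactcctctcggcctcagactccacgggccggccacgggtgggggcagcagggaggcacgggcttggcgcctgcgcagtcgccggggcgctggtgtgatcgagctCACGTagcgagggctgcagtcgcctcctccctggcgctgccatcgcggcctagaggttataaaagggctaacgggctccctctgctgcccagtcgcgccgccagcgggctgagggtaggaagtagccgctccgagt
EGLN1: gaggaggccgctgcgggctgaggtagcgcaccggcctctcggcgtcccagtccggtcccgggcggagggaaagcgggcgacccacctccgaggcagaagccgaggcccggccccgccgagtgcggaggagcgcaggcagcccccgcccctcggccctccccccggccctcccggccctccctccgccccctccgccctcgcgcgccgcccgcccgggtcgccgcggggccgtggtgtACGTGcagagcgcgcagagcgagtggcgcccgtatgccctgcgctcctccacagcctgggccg
PGK1: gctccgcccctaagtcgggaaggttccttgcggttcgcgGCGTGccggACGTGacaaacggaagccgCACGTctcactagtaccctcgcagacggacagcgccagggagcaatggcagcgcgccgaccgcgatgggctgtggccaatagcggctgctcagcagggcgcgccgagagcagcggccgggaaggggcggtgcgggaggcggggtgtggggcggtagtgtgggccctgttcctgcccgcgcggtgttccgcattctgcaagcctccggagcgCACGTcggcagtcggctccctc
ENO1: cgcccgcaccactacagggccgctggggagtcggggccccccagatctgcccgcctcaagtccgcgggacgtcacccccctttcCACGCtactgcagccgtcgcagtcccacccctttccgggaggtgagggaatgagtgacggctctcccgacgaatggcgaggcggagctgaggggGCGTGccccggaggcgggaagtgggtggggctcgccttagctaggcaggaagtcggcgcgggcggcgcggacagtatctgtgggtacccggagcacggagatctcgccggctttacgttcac

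The windows of P4HA1, EGLN1, PGK1 and ENO1 held 1, 1, 4 and 2 matches. They are shown as examples, and no comparison of match numbers was made.

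Genes around the route were taken from lists drawn up by function. Of 41 other genes of glucose and pyruvate metabolism tested (54 of 55 matched an identifier), 14 rose (34.1%), 9 fell (22%) and 18 did not pass, with a median log2 fold change of 0.05, beside 24.9% higher and 23.5% lower over all genes tested. PYGB, the brain-type glycogen phosphorylase, changed by -0.82 (SE 0.039). HKDC1, a hexokinase, changed by -0.46 (SE 0.049) and GFPT1, the entry enzyme of hexosamine synthesis, by -0.41 (SE 0.045). On the other side stood PDP1, a pyruvate dehydrogenase phosphatase, at 0.72 (SE 0.085), PYGL, the liver-type glycogen phosphorylase, at 0.43 (SE 0.041), GBE1, the glycogen branching enzyme, at 0.42 (SE 0.046) and ADPGK, an ADP-dependent glucokinase, at 0.39 (SE 0.041). Of other SLC2A family members in the list, SLC2A6 rose by 0.43 (SE 0.055, adjusted p = 7.52e-10) and averaged 19.2 ± 0.747 FPKM in miR-19a and 14.4 ± 0.865 FPKM in miR-NC libraries (SD, n = 3 each). SLC2A8 at 0.17 (SE 0.086) and SLC2A13 at -0.06 (SE 0.084) did not pass, and SLC2A4, SLC2A10, SLC2A12 and SLC2A14 were below the filter.

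Of 31 other hypoxia-inducible genes tested, 11 rose (35.5%), 9 fell (29%) and 11 did not pass, beside 24.9% and 23.5% over all genes tested, and the median was 0.00. Changes in this list went both ways, between -1.30 and 1.53. EFNA1, an ephrin ligand, averaged 142.7 ± 2.7 CPM in miR-19a and 49.3 ± 2.04 CPM in miR-NC libraries (SD, n = 3 each), 1.53 on the log2 scale (SE 0.048, adjusted p = 6.57e-38). ANGPTL4, an inhibitor of lipoprotein lipase, stood at 1.27 (SE 0.051), P4HA2, another collagen prolyl hydroxylase subunit, at 0.89 (SE 0.048) and DDIT4, an inhibitor of mTORC1, at 0.68 (SE 0.039). IGFBP3, which binds insulin-like growth factors, averaged 69.0 ± 1.92 CPM in miR-19a and 170.0 ± 24.3 CPM in miR-NC libraries (log2 fold change -1.30, SE 0.055). HMOX1, heme oxygenase, was at -0.83 (SE 0.04) and CA12, a membrane carbonic anhydrase, at -0.44 (SE 0.035).

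Of 19 regulators of HIF tested, 2 rose (10.5%), 6 fell (31.6%) and 11 did not pass, with a median of -0.06. That is 42.1% called, beside 48.4% of all genes tested. ARNT2, a paralogue of ARNT, changed by -0.56 (SE 0.067), CITED4, which competes with HIF for its coactivators, by -0.41 (SE 0.066), HIF1AN, the asparagine hydroxylase that blocks HIF activity, by -0.37 (SE 0.053), and ELOC, a subunit of the VHL ubiquitin ligase, by -0.29 (SE 0.047). OS9, an endoplasmic reticulum lectin reported to bind HIF1A, rose by 0.16 (SE 0.039) and EGLN2, the third HIF prolyl hydroxylase, by 0.21 (SE 0.075). EGLN2 lost its call when replicate 3 of miR-19a was left out (adjusted p = 0.0524) or replicate 1 or 3 of miR-NC (0.101 and 0.125), and with DESeq2 (0.0663) or limma (0.0976 and 0.0944). VHL itself, the recognition subunit of that ligase, was at 0.06 (SE 0.06) and did not pass.

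**Figure D5:**
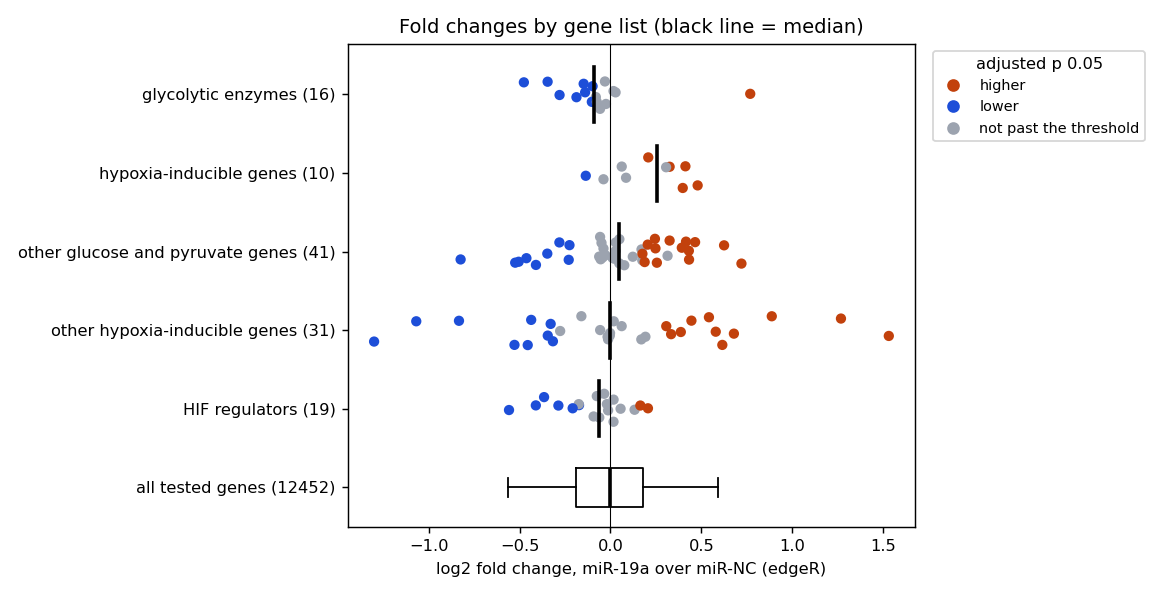
Log2 fold change of miR-19a over miR-NC for each tested gene of 5 lists, with the number tested in brackets, and for all 12452 genes tested as a box (quartiles, whiskers at the 5th and 95th percentile). Glycolytic enzymes have a median of -0.09 and hypoxia-inducible members one of 0.26, and other hypoxia-inducible genes run from -1.30 to 1.53.

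Members share reads with copies and neighbours to different degrees. Glycolytic genes have many processed pseudogenes, and rows named after a member held few counts, at most 4.34% of the parent (PGAM1), 1.44% for TPI1, 1.16% for LDHA and 0.323% for GAPDH over the 6 libraries. Exons of PGK1, PFKM, TPI1, PFKFB2, SLC16A3, BNIP3L, ANKRD37 and CA9 overlap exons of other genes with 1457 to 21034 counts over the 6 libraries (ATP7A, SENP1, SPSB2, YOD1, CSNK1D, PNMA2, UFSP2 and ARHGEF39, in that order), all on the opposite strand except ATP7A. PFKFB4 overlaps UCN2 on the same strand, a gene with 458 counts over the 6 libraries, while PFKFB4 itself had 310, 340 and 355 counts in the miR-19a libraries, against 203, 187 and 163 counts in the miR-NC libraries. With the strand setting of the counting not stated, reads of such pairs cannot be told apart with certainty.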

How the data were processed

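Poly(A) RNA of A549 cells was sequenced from 3 miR-19a and 3 miR-NC samples. The authors deposited one table with raw read counts and FPKM values per gene identifier, per the file headers. The submitters' processing notes name bcl2fastq 2.17.1.14. Aligner, counter, genome build and any use of strand: not given in the sources used here. Symbols were found for 51996 identifiers in a gene-name table and for 342 in GENCODE v29. TXNIP and PECAM1 matched no identifier and were not analysed here.

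Counts were tested with edgeR 4.0.16 (quasi-likelihood, TMM factors, R 4.3.3) in 12452 genes with a mean of at least 1 FPKM over the 6 libraries, with Benjamini-Hochberg adjustment over all of them and a threshold of 0.05. The standard error was computed from the log2 fold change and its F statistic. Ratios and sums used the deposited FPKM, and ratios were tested by exact permutation. The script for the count test was tested on simulated data. Alternatives were other scaling factors, other filters, DESeq2 1.42.0, limma 3.58.1 on log2(FPKM + 1) and log2(FPKM + 0.1), a replicate block and leaving out each library. Adding near-identical copies to the parent gene was chosen after seeing the data.

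The members and lists were chosen with earlier results of these data known. By the rule for named genes, per-library values are given for both glucose transporters and for up to 3 rises and 3 falls in each other role group. In each list of other genes, up to 4 higher and 4 lower genes with the smallest adjusted p are named. VHL, GAPDH, the SLC2A family members, and members that did not pass but are given per library, were named beyond that rule after their values were seen. A few genes and a sequence that this rule would include are not reported here.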

Additional observations from a re-analysis of the deposited data

How the results depend on the processing

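The counts called among members (10 higher, 12 lower) moved by over 1.5 times only with a minimum of 5 FPKM, which left 6 higher because fewer genes were tested. The number of glucose transporters called higher was 1 in place of 2 with upper-quartile factors, library totals alone and limma at either pseudocount, and 1 to 2 when 1 library was left out. For glycolytic enzymes it was 2 in place of 1 without a filter and with filterByExpr, which admit HK2, and 0 at 5 FPKM. For the regulatory enzymes the higher count was 2 without a filter and with filterByExpr and 0 at 5 FPKM, and the lower count was 1 at 5 FPKM. Among hypoxia-inducible genes the higher count was 3 at 5 FPKM, and the lower count (KDM3A) was 0 without a filter, at 5 FPKM, with DESeq2 and with limma at either pseudocount, and 0 to 1 with 1 library left out. HIF regulators called higher were 1 in place of 2 at 5 FPKM, with DESeq2 and with limma at either pseudocount, and 1 to 2 with 1 library left out. HIF subunits called higher were 0 to 1 with 1 library left out. LDHA was called lower with upper-quartile factors, library totals alone, DESeq2 and limma. Only the log2 fold changes of PGAM1 and EPAS1, neither called, changed sign. PGAM1 was at -0.0044 with upper-quartile factors and between -0.005 and 0.04 with 1 library left out, negative when this was miR-19a replicate 3 (-0.005) or miR-NC replicate 1 (-0.0025). EPAS1 was at 0.003 without a filter and between -0.03 and 0.03 with 1 library left out, positive when this was miR-19a replicate 1 (0.0077) or miR-NC replicate 2 (0.03). Where no reason is given, the cause was not tested. Same-numbered libraries did not deviate together (correlations -0.01, 0.012 and -0.046), and differently numbered ones gave -0.029 to 0.037. Near-zero values cannot tell whether same-numbered samples were prepared together, because preparation in pairs need not leave a detectable shared deviation. With a replicate block 5986 genes were called, with 10 members higher and 12 lower. Low counts limit CA9, HK2, PDK1, ALDOC and ANKRD37.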
